A study of Mus musculus with 18 samples.

Results

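The genes described here are 28 that make cholesterol or fatty acids, or that sense and move cholesterol, chosen by symbol from the 35976 rows of the expression table of mouse colon. All 28 were found and all 28 were among the 14129 genes tested. RNA was sequenced from whole colon tissue taken on day 2 in 3 groups of 6 libraries. Mice of the ISM012-042 group had TNBS colitis and received ISM012-042, a compound that blocks PHD in the gut according to the series title. PHD enzymes hydroxylate hypoxia-inducible factor and so lead to its breakdown. Mice of the vehicle group had the same colitis and received vehicle, and sham mice had no colitis. TNBS is a hapten that provokes acute inflammation of the colon. The labels give neither strain, age nor dose, and do not state that each library came from a separate animal. The p-values therefore rest on the spread among libraries, which may be technical.

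Cells make cholesterol from acetyl-CoA through mevalonate and squalene, and make fatty acids from the same acetyl-CoA by carboxylation, elongation and desaturation. Transcription of these enzymes is driven by the membrane-bound factors SREBP2 (encoded by Srebf2), which acts mainly on sterol genes, and SREBP1 (Srebf1), which acts mainly on fatty acid genes. When sterols are plentiful, Insig proteins hold both factors in the endoplasmic reticulum, and oxysterols activate the liver X receptor, which turns on the cholesterol exporter Abca1. Insig1 is itself a SREBP target. In the intestine the epithelium makes cholesterol for its own renewal, and white fat, which lies against the colon in the mesentery, is a main site of fatty acid synthesis.

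Promoter sequences are shown for the 3 genes on which the comparisons turn, the sterol sensor Insig1, the sterol enzyme Hmgcs1 and the exporter Abca1, and for the fatty acid synthase gene Fasn, because their regulatory letters differ. Each runs 5′ to 3′ on the strand of its gene, from 250 bases before to 50 bases after the start, as given by RefSeq for GRCm38.p6. They lie at chr5:28071162-28071461 (plus strand), chr13:119690101-119690400 (plus strand), chr4:53159846-53160145 (minus strand) and chr11:120824498-120824797 (minus strand). For Abca1 and Fasn the start used lies inside the gene as listed, whose upper end is 53159988 for Abca1 and 120825166 for Fasn. Capitals mark matches, on either strand, to the sterol regulatory element TCACNCCAC, the NF-Y box CCAAT, the E-box CACGTG, the GC box GGGCGG or the hypoxia response core ACGTG.
Insig1: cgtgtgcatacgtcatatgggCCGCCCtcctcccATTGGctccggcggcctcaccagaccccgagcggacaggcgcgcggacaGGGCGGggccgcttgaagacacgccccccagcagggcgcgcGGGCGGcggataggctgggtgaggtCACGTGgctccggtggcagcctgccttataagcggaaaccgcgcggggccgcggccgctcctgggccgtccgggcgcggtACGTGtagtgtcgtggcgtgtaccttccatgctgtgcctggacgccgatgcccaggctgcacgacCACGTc
Hmgcs1: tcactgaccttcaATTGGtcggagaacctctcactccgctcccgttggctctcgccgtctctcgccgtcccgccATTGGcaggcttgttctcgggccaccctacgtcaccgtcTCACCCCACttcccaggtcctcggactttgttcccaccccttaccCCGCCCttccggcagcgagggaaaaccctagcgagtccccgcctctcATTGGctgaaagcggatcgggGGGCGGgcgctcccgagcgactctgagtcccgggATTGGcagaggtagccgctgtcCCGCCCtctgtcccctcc
Abca1: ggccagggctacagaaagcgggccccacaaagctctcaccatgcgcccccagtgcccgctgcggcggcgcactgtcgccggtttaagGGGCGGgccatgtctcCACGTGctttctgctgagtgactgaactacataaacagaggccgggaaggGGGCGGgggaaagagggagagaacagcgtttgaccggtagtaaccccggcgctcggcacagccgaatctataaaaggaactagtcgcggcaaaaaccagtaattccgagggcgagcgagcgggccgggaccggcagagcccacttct
Fasn: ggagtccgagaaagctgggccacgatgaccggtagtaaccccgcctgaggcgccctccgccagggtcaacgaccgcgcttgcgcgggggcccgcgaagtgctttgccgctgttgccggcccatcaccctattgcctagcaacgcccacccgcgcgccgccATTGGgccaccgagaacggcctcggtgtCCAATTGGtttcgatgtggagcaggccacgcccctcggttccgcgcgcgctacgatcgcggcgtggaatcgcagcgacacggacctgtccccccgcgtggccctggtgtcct
Of the 28 genes 22 had a promoter in the RefSeq table. CCAAT, read as ATTGG on the other strand, stood in 19 of them (86.4%), among them all 12 sterol enzymes with a promoter, against 41.1% of all genes in the table. The GC box stood in 18 (81.8%, against 38.2% of all genes) and the E-box in 5 (22.7% against 8.09%). ACGTG, which any CACGTG also contains, stood in 8 (36.4% against 21.8%). Among the 22, TCACNCCAC was found in Hmgcs1 alone, which is 4.55% against 1.44% of all genes. The Abca1 window held an E-box and GC boxes and no CCAAT, and the Fasn window held CCAAT and none of the other 4 patterns. The shares of all genes are over 27025 genes with a promoter in the RefSeq table. These include genes outside the 14129 tested, whereas all 28 were tested, and the shares among tested genes are not given here. These matches describe letters and do not show binding.

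Levels are given in TPM, a unit per transcript length with a sum of 1000000 per library, so that genes can be compared with each other. TPM keep no record of depth, which is therefore unknown. The number of genes at 1 TPM or more lay between 12681 and 14632. The share of TPM from the 13 mitochondrial genes ranged from 20.1% to 57.8% and lowers all other values where it is high. Hoxb13, a gene of the distal colon, ranged from 0.329 to 287.9 TPM, and both low and high libraries occurred in every group. The mean log2(TPM + 1) of 11 fat cell markers, called the adipocyte score, ranged from 0.82 to 6.65. Marker genes of the epithelium, summing to at least 4025 TPM, were high in every library, as the label colon implies.

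The 28 genes covered a wide range of levels. Over the 18 libraries the desaturase gene Scd2 had the highest mean, at 150.8 TPM, followed by Hmgcs1 at 141.3, Msmo1 at 106.4 and Fdps at 96.2 TPM. The order of the first 2 was not the same in every group, since Hmgcs1 averaged 183.3 and Scd2 179.98 TPM in sham libraries, and their medians in vehicle libraries were 104.1 and 71.5 TPM. The lowest means were 6.34 TPM for Abca1, 8.77 for Hsd17b7 and 10.9 for Acaca, the gene of acetyl-CoA carboxylase. Scd1 varied most, with a 64.0-fold range between its lowest and highest library, and Scd2 had a 27.0-fold range. The 15 sterol enzymes varied far less, between 2.64-fold for Dhcr7 and 10.9-fold for Fdps. In some libraries most of them stood at 1 end of their group. Vehicle replicate 1 had the highest level in its group for 14 of the 15 enzymes, where 19.8% of all genes tested were highest. Vehicle replicate 5 had the lowest for 14 and ISM012-042 replicate 5 the lowest for 13, but 64.2% and 52.6% of all genes tested were also lowest in these libraries. Sham replicate 2 had the highest level in its group for 9 of the 15, where 11.9% of all genes tested were highest. In sham libraries the lowest values were spread over 4 libraries, with at most 6 of the 15 in any of them. Vehicle replicate 5 was also the library with the largest mitochondrial share, 57.8%, and had 1.52 TPM of Hoxb13, whereas vehicle replicate 1 had 26.3% and 179.3 TPM. The epithelial score, the mean log2(TPM + 1) of 6 general epithelial markers, was lowest of the vehicle group in replicate 5, at 8.79, and highest in replicate 1, at 10.01. The part of these measures in the enzyme levels was not tested.

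**Figure D1:**
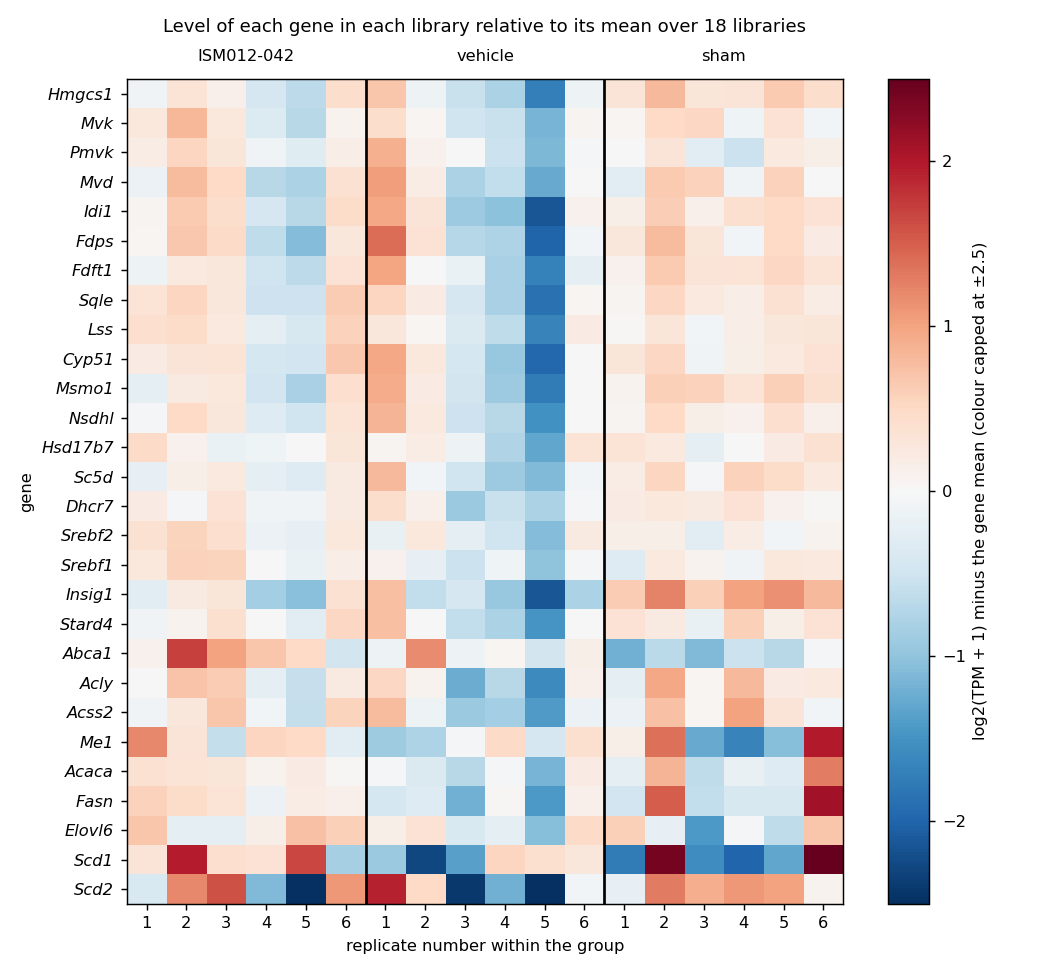
Level of each of the 28 genes (rows, in the order of the pathway) in each of the 18 libraries (columns), as log2(TPM + 1) minus the mean of that gene over the 18 libraries. The sterol enzymes in the upper rows are high together in vehicle replicate 1 and low together in vehicle replicate 5, while Me1, Fasn and Scd1 are high in sham replicates 2 and 6.

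The comparison of vehicle with sham asks what colitis changed. Insig1 was the 1 gene of the 28 that fell, and none rose. Over all genes tested 4.13% fell and 0.326% rose by the same limma test at an adjusted p of 0.05, so 1 of 28 is close to the background. At an unadjusted p of 0.05 the test gave 9 lower and 1 higher of the 28, against 14.9% lower and 3.16% higher of all genes. By sign, 26 of the 28 were lower in vehicle, against 58.7% of all genes tested. The median difference of the 28 was -0.56 on the log2(TPM + 1) scale, beside -0.07 for all genes tested. Such differences understate the change of genes with low TPM. In bulk tissue, fewer cells of a type and less RNA per cell cannot be told apart.

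Insig1 (chromosome 5, 28071412 to 28078662, GRCm38.p6) encodes the sterol-dependent retention protein of SREBP. Its level was 10.3 TPM at the lowest, 29.6 at the median and 83.4 at the highest in vehicle libraries, against 73.9, 92.5 and 116.9 TPM in sham libraries. The highest vehicle library was replicate 1, and the other 5 vehicle libraries, with at most 36.3 TPM, lay below every sham library. The difference was -1.60 ± 0.35 on the log2 scale (SE, n = 6 each, limma adjusted p = 0.0157). Insig1 passed in each of the 12 fits that left out 1 vehicle or sham library, with differences from -1.89 to -1.31. Among the libraries with a log2 Hoxb13 above 5 it missed the threshold, at -1.21 ± 0.39 (adjusted p = 0.0735). Surface colonocyte markers moved in the same direction. Of 11 measured, 6 fell in vehicle, and they summed to between 5705 and 11947 TPM in vehicle libraries, against 10374 to 16885 TPM in sham libraries. The 6 general epithelial markers were all negative, with a median of -0.41 beside -0.07 for all genes, and none passed. The part of these cells in the Insig1 result was not tested.

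**Figure D2:**
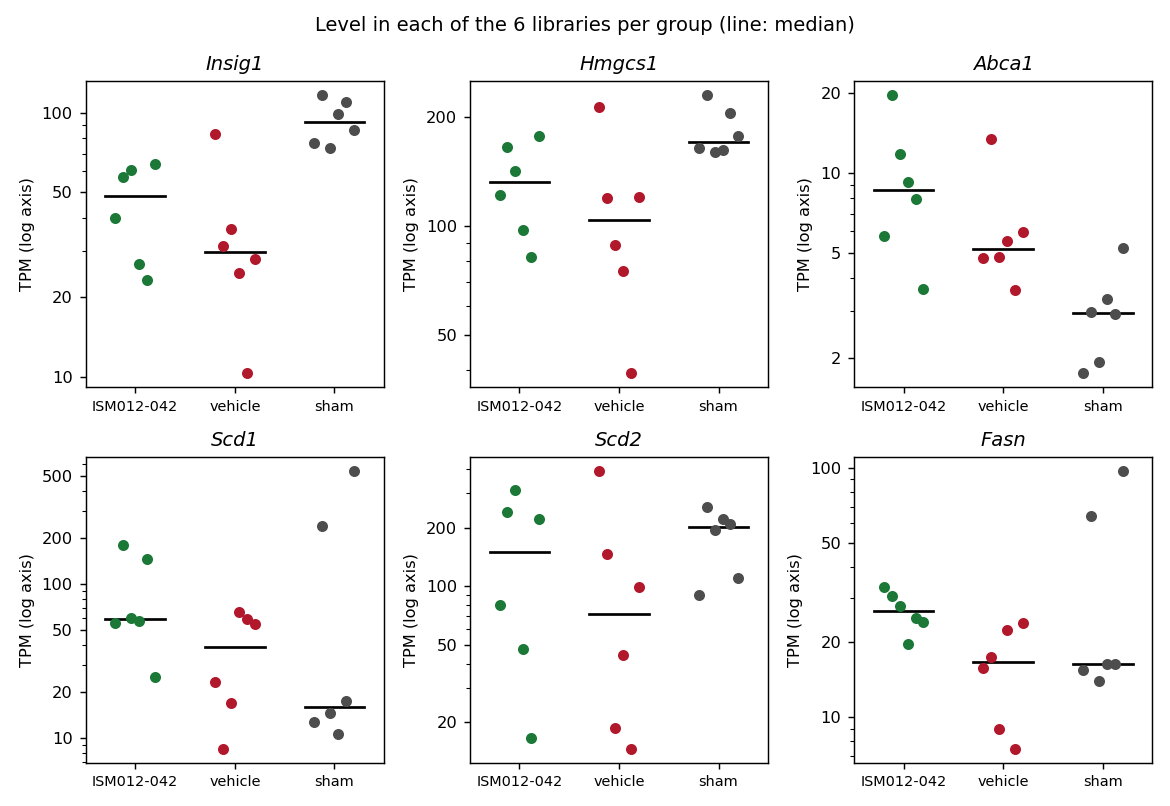
TPM (log axis) of 6 genes in each library of the ISM012-042, vehicle and sham groups, with a line at the group median. All 6 ISM012-042 libraries and 5 of 6 vehicle libraries lie below every sham library for Insig1, while for Scd1 and Fasn sham replicates 2 and 6 stand apart from the other sham libraries.

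The 6 enzymes that lead to farnesyl diphosphate were lower in vehicle by sign and none passed. Hmgcs1 (chromosome 13, 119690351 to 119708260), which makes HMG-CoA, had 39.2, 104.1 and 212.9 TPM at the lowest, median and highest in vehicle libraries, against 160.8, 170.6 and 230.5 TPM in sham libraries. Vehicle replicate 1 lay inside the sham range and the other 5 vehicle libraries below it. The difference was -0.90 ± 0.29 (adjusted p = 0.0837). With libraries rescaled by their median ratio to a common reference, which does not rest on the few most abundant genes, it was -0.79 and passed. The isomerase gene Idi1 differed by -0.80 ± 0.39, the farnesyl diphosphate synthase gene Fdps by -0.63 ± 0.42, and the kinase and decarboxylase genes Mvk and Mvd by -0.48 ± 0.26 and -0.48 ± 0.35. Pmvk, the second kinase of the pathway, differed by -0.09 ± 0.26.

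The 9 enzymes from squalene to cholesterol were also lower by sign without a call, with a median of -0.60. The largest differences were those of Msmo1, the C4-methyl sterol oxidase, at -0.77 ± 0.33, and of Fdft1, squalene synthase, at -0.70 ± 0.31. Sqle, the rate-limiting epoxidase of this arm, differed by -0.65 ± 0.32, Sc5d, the sterol C5-desaturase, by -0.63 ± 0.24, and Cyp51, the lanosterol demethylase, by -0.60 ± 0.35. Lss, which closes the sterol rings, stood at -0.52 ± 0.27, Nsdhl and Hsd17b7, which complete removal of the C4 methyl groups, at -0.50 ± 0.29 and -0.43 ± 0.23, and Dhcr7, a late reductase, at -0.49 ± 0.20. Their adjusted p lay between 0.160 for Sc5d and 0.394 for Cyp51. Without vehicle replicate 1, the library with the highest sterol enzymes of its group, 8 of the 28 fell, namely Hmgcs1, Fdft1, Msmo1, Sc5d, Dhcr7, Insig1, Stard4 and Acss2. In that fit 6.26% of all genes tested fell. This library stands out by the levels of the same enzymes, so larger differences for them follow from leaving it out. When 1 library at a time was left out, the count of lower genes ranged from 1 to 8.

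Among the regulators, Srebf2 was at -0.29 ± 0.20 and Srebf1 at -0.37 ± 0.19. Stard4, a carrier of cholesterol between membranes, was at -0.60 ± 0.27. Abca1, the exporter of cholesterol to apolipoprotein A1, went the other way, at 0.82 ± 0.32 (adjusted p = 0.168). It had 3.62, 5.16 and 13.4 TPM at the lowest, median and highest in vehicle libraries, against 1.75, 2.96 and 5.21 TPM in sham libraries. The groups overlapped through sham replicate 6. With median-ratio scaling the count became 1 higher, Abca1 at 0.92, and 2 lower, Insig1 and Hmgcs1, against 3.67% and 6.81% of all genes.

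None of the 8 genes of fatty acid synthesis, elongation and desaturation passed between vehicle and sham. Acly and Acss2, which make cytosolic acetyl-CoA from citrate and from acetate, were at -0.81 ± 0.33 and -0.76 ± 0.32. Fasn, fatty acid synthase, was at -0.83 ± 0.43, Acaca at -0.48 ± 0.29 and the NADPH-producing malic enzyme gene Me1 at -0.12 ± 0.53. Elovl6, an elongase of saturated fatty acids, was at 0.05 ± 0.33. The desaturase genes Scd1 and Scd2 were at -0.45 ± 0.89 and -1.37 ± 0.77, the widest errors of the 28. Scd1 had 8.51, 38.8 and 65.8 TPM at the lowest, median and highest in vehicle libraries, against 10.6, 16.0 and 544.7 TPM in sham libraries. Its sham mean of 140 ± 218 TPM (SD, n = 6) rested on sham replicates 2 and 6, at 239.9 and 544.7 TPM, since the other 4 sham libraries had at most 17.5 TPM. How reads shared between related genes were counted is not given in the sources used here. The RefSeq transcripts of Scd1 share 145 of their 4841 words of 50 bases with those of Scd2.

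The comparison of ISM012-042 with vehicle asks what the compound changed within colitis. None of the 28 genes passed in either direction, nor did any gene of the table (0% higher and 0% lower, smallest adjusted p 0.233). All 28 differences were positive. Their median was 0.46, but 92.1% of all genes tested were also positive, with a median of 0.30, and 22 of the 28 lay above that median. With median-ratio scaling, where the median of all genes was 0.00, the 28 had a median of 0.14, with 21 positive and 7 negative.

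At an unadjusted p of 0.05, limma gave 2 of the 28 higher and none lower. Of all genes tested 18.9% were higher and 0.127% lower at that p, so the 28 had a smaller share of higher genes than the table as a whole. The 2 were the transcription factor genes. Srebf1 (chromosome 11, 60199084 to 60224186) had 14.96, 19.8 and 25.7 TPM at the lowest, median and highest in ISM012-042 libraries, against 7.93, 15.2 and 18.3 TPM in vehicle libraries, a difference of 0.53 ± 0.19 (unadjusted p = 0.0116, adjusted p = 0.233). Srebf2 (chromosome 15, 82147269 to 82205379) had 31.2, 45.3 and 53.6 TPM in ISM012-042 libraries, against 16.6, 31.2 and 43.4 TPM in vehicle libraries, a difference of 0.46 ± 0.20 (unadjusted p = 0.0338, adjusted p = 0.25). The groups overlapped for both genes. With median-ratio scaling none of the 28 reached an unadjusted p of 0.05, against 2.46% of all genes higher and 5.13% lower.

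The enzymes showed small differences with wide errors between ISM012-042 and vehicle. The 15 sterol enzymes lay between 0.23 ± 0.33 for Msmo1 and 0.53 ± 0.27 for Lss. The 5 fatty acid synthesis genes lay between 0.49 ± 0.53 for Me1 and 0.80 ± 0.43 for Fasn. Fasn was 19.6, 26.6 and 33.3 TPM at the lowest, median and highest in ISM012-042 libraries, against 7.47, 16.6 and 23.9 TPM in vehicle libraries. Acaca likewise had 10.2 to 13.3 TPM in ISM012-042 libraries, against 3.91 to 11.8 TPM in vehicle libraries. For both genes the ISM012-042 values sat in the upper part of the joint range and overlapped the vehicle values. Elovl6 was at 0.40 ± 0.33, Scd2 at 0.64 ± 0.77 and Scd1 at 1.21 ± 0.89. Insig1 was at 0.48 ± 0.35, Stard4 at 0.46 ± 0.27 and Abca1 at 0.48 ± 0.32. Without vehicle replicate 5, whose mitochondrial share was largest, the median of the 28 was 0.21 beside 0.19 for all genes, and 25 were positive.

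The comparison of ISM012-042 with sham sets the treated colitis against no colitis, and uses the same sham libraries as the comparison of vehicle with sham. Abca1 rose, the 1 gene of the 28 to do so, and none fell. Of all genes tested 0.545% rose and 0.871% fell. At an unadjusted p of 0.05 limma gave 1 of the 28 lower, against 4.44% of all genes. It also gave 1 of the 28 higher, Abca1, against 2309 of the 14129 genes tested. By sign 9 of the 28 were positive and 19 negative, against 77.1% and 22.9% of all genes. The median of the 28 was -0.14 beside 0.21 for all genes. With median-ratio scaling 4 were positive and 24 negative, with a median of -0.36 beside 0.02 for all genes.

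Abca1 (chromosome 4, 53030789 to 53159988) had 3.63, 8.59 and 19.6 TPM at the lowest, median and highest in ISM012-042 libraries, against 1.75, 2.96 and 5.21 TPM in sham libraries. The groups overlapped through ISM012-042 replicate 6 and sham replicate 6, the lowest and the highest of their groups. The difference was 1.30 ± 0.32 (SE, n = 6 each, limma adjusted p = 0.0483). The call is at the threshold and was lost when any 1 of these 12 libraries other than ISM012-042 replicate 6 or sham replicate 6 was left out, with differences from 1.08 to 1.398, and with a pseudocount of 5, at 0.80. It was also lost with no filter on low genes (adjusted p = 0.0809), with the replicate number as a block (adjusted p = 0.0521), with the adipocyte score as a covariate (adjusted p = 0.188) and on either side of the Hoxb13 split described below (adjusted p = 0.0792 above and 0.422 below). Macrophage markers moved in the same direction, 9 of 9 positive and none past the threshold, where 77.1% of all genes tested were positive. These markers summed to between 335.0 and 1583 TPM in ISM012-042 libraries, against 128.2 to 424.1 TPM in sham libraries. The Abca1 maximum of the ISM012-042 group, replicate 2, was also its maximum for macrophage and neutrophil markers, with scores of 6.54 and 8.67. But 50.3% of all genes tested were also highest of the group in this library. The part of these markers in the Abca1 result was not tested.

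Insig1 was lower in ISM012-042 than in sham without a call. It had 23.3, 48.4 and 63.9 TPM at the lowest, median and highest in ISM012-042 libraries, against 73.9, 92.5 and 116.9 TPM in sham libraries. Every ISM012-042 library lay below every sham library. The share of all genes tested that separated these groups in the same way is not given here. The difference was -1.12 ± 0.35 (adjusted p = 0.120). It passed with median-ratio scaling (-1.34, adjusted p = 0.0129), without mitochondrial genes (-1.17, adjusted p = 0.0252) and when only these 2 groups were fitted (adjusted p = 0.0325), where the spread of the vehicle libraries drops out. Surface colonocyte markers, of which 2 of 11 fell in ISM012-042 against sham, summed to between 5134 and 15813 TPM in ISM012-042 libraries, against 10374 to 16885 TPM in sham libraries. Their part was not tested. Hmgcs1 was at -0.52 ± 0.29 and, with median-ratio scaling, fell by 0.74. In that scaling 2 of the 28 fell and 1, Abca1, rose, against 4.37% and 0.97% of all genes.

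In the same comparison the other sterol enzymes lay between -0.54 ± 0.33 for Msmo1 and 0.15 ± 0.26 for Pmvk, with Fdft1 at -0.45 ± 0.31, Fdps at -0.37 ± 0.42, Sc5d at -0.36 ± 0.24 and Sqle at -0.14 ± 0.32. Idi1, Mvd, Nsdhl, Mvk, Cyp51, Dhcr7, Hsd17b7 and Lss lay between -0.27 and 0.01. Srebf1 was at 0.15 ± 0.19, Srebf2 at 0.17 ± 0.20 and Stard4 at -0.14 ± 0.27. Of the fatty acid genes, Acly was at -0.21 ± 0.33, Acss2 at -0.19 ± 0.32, Fasn at -0.03 ± 0.43, Acaca at 0.10 ± 0.29, Me1 at 0.37 ± 0.53, Elovl6 at 0.45 ± 0.33, Scd1 at 0.76 ± 0.89 and Scd2 at -0.72 ± 0.77. None of these passed.

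**Figure D3:**
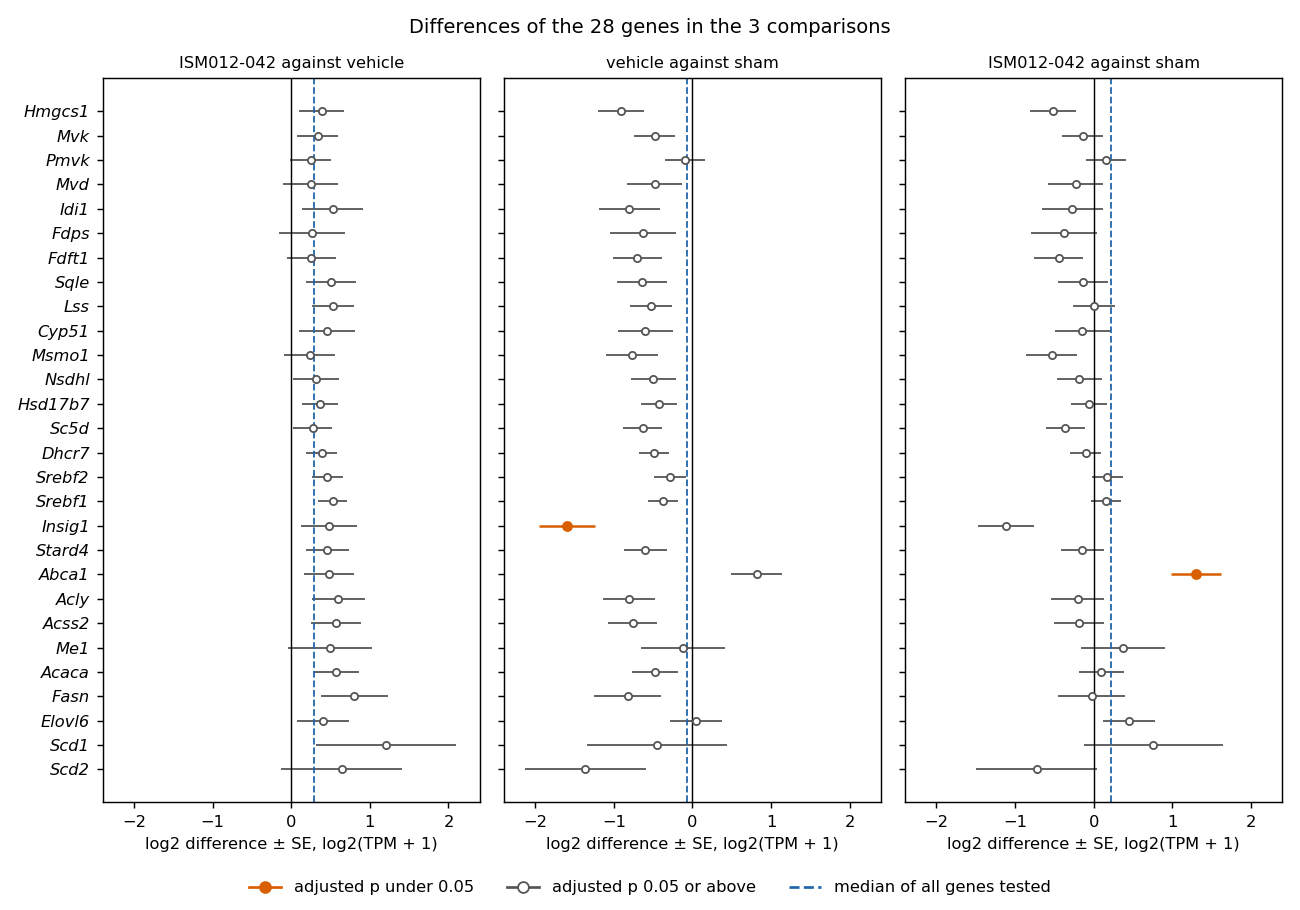
Difference of each of the 28 genes on the log2(TPM + 1) scale with its SE in ISM012-042 against vehicle, vehicle against sham and ISM012-042 against sham (n = 6 per group), with filled points for an adjusted p under 0.05 and a dashed line at the median of all genes tested. Insig1 in vehicle against sham, at -1.60, and Abca1 in ISM012-042 against sham, at 1.30, are the 2 filled points.

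Insig1 and Hmgcs1, which both respond to SREBP, were also compared within each library, where no scaling of the library matters. This ratio was chosen after the values had been seen. Insig1 divided by Hmgcs1 ranged from 0.274 to 0.428 in ISM012-042 libraries and from 0.232 to 0.409 in vehicle libraries, against 0.460 to 0.608 in sham libraries. The medians were 0.335, 0.296 and 0.497. Every colitis library, with or without compound, lay below every sham library, and the ISM012-042 and vehicle libraries overlapped. Insig1 divided by any other gene tested was lower in every vehicle library than in every sham library for 26.8% of genes. This held for 9 of the 27 other genes described here, among them 8 of the 15 sterol enzymes. For ISM012-042 against sham the same held for 64.5% of genes and 16 of the 27, among them 11 of the 15 enzymes.

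Me1 and Scd1 followed the fat cell markers across libraries. The adipocyte score was 5.19 ± 1.33 in ISM012-042, 3.83 ± 2.33 in vehicle and 2.91 ± 2.33 in sham libraries (SD, n = 6 each). In each of the 3 comparisons 10 of 10 fat markers tested were positive, with none past the threshold. Of all genes tested, 92.1% were positive in ISM012-042 against vehicle, 41.3% in vehicle against sham and 77.1% in ISM012-042 against sham. The markers summed to between 266.7 and 5450 TPM in ISM012-042 libraries and 32.5 to 4295 TPM in vehicle libraries, against 26.8 to 4727 TPM in sham libraries. Over the 18 libraries Me1 had a Pearson r with the score of 0.845 and a Spearman rho of 0.868 (permutation p = 2e-05 for each, adjusted p = 0.00056 over 28 genes). Scd1 had r = 0.788 (permutation p = 0.0002, adjusted p = 0.0028) and rho = 0.746 (permutation p = 0.00069, adjusted p = 0.00966). Without the 2 libraries farthest from the median score, r was 0.816 for Me1 and 0.789 for Scd1. Within the 6 libraries of each group r was 0.843, 0.926 and 0.984 for Me1 and 0.559, 0.805 and 0.951 for Scd1 in ISM012-042, vehicle and sham, and after adjustment over 84 such relations no exact permutation p passed. The other 26 genes did not pass over the 18 libraries, and 0.814% of all genes tested had a positive r at least as large as that of Scd1. With median-ratio scaling 20 of the 28 passed. Me1, Scd1, Acaca and Fasn were positive and the other 16, most of them sterol enzymes, were negative, where 9.23% of all genes had a positive r and 9.65% a negative r of at least the smallest size that passed among the 28.

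With group as a term in limma, Scd1 changed by 0.66 ± 0.12 and Me1 by 0.43 ± 0.06 on the log2 scale per unit of the score, and these were the 2 of 28 genes with a passing slope, beside 0.899% of all genes with a passing positive slope. Sham replicates 2 and 6, with scores of 4.85 and 6.56, were the libraries with the highest Scd1, Fasn, Acaca and Me1 of all 18. Fasn had 64.1 and 97.6 TPM there and at most 33.3 TPM elsewhere. ISM012-042 replicate 5, with the highest score of all, 6.65, had 25.1 TPM of Fasn. Within ISM012-042, vehicle and sham libraries r with the score was -0.09, 0.12 and 0.96 for Fasn and 0.10, 0.03 and 0.96 for Acaca. With the score as a covariate, the differences of ISM012-042 from sham were -0.74 for Scd1 and -0.61 for Me1, without a call, where they were 0.76 and 0.37 without it.

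Scd2 and most sterol genes followed Hoxb13 in TPM as deposited, as did many genes of the table. The adipocyte score and Hoxb13 were not separate measures, since Hoxb13 itself had a slope of -0.76 ± 0.25 on the score, which did not pass (adjusted p = 0.200). With group as a term, 19 of the 28 genes had a passing positive slope on log2 Hoxb13, against 32.9% of all genes tested, and none had a passing negative slope. The median slope was 0.13 for the 28 and 0.06 for all genes tested. These slopes were fitted on TPM as deposited and not with median-ratio scaling. Vehicle replicates 3, 4 and 5, with at most 3.40 TPM of Hoxb13, had the largest mitochondrial shares of their group, 43.1%, 45.2% and 57.8%. ISM012-042 replicate 5 had the lowest Hoxb13 and the largest share of its group, 39.8%. Sham replicate 3 went the other way, with 237.7 TPM and 42.6%. The part of this share in the slopes was not tested. Scd2 had the steepest, 0.49 ± 0.06 per log2 unit of Hoxb13 (adjusted p = 7.59e-05). Its median was 220.8 TPM in the 11 libraries with a log2 Hoxb13 above 5 and 44.2 TPM in the 7 below. The 2 sets overlapped, with 47.6 TPM as the lowest above and 110.3 TPM as the highest below. Fdps, Idi1 and Mvd followed, with slopes of 0.22 ± 0.05, 0.21 ± 0.04 and 0.20 ± 0.04, and Insig1 had 0.16 ± 0.05. Pmvk, Hsd17b7, Srebf2, Abca1, Elovl6, Acaca, Fasn, Scd1 and Me1 had no passing slope. Scd1 and Scd2, neighbours on chromosome 19 that encode desaturases of the same reaction, had slopes of -0.20 ± 0.15, which did not pass, and 0.49 ± 0.06.

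**Figure D4:**
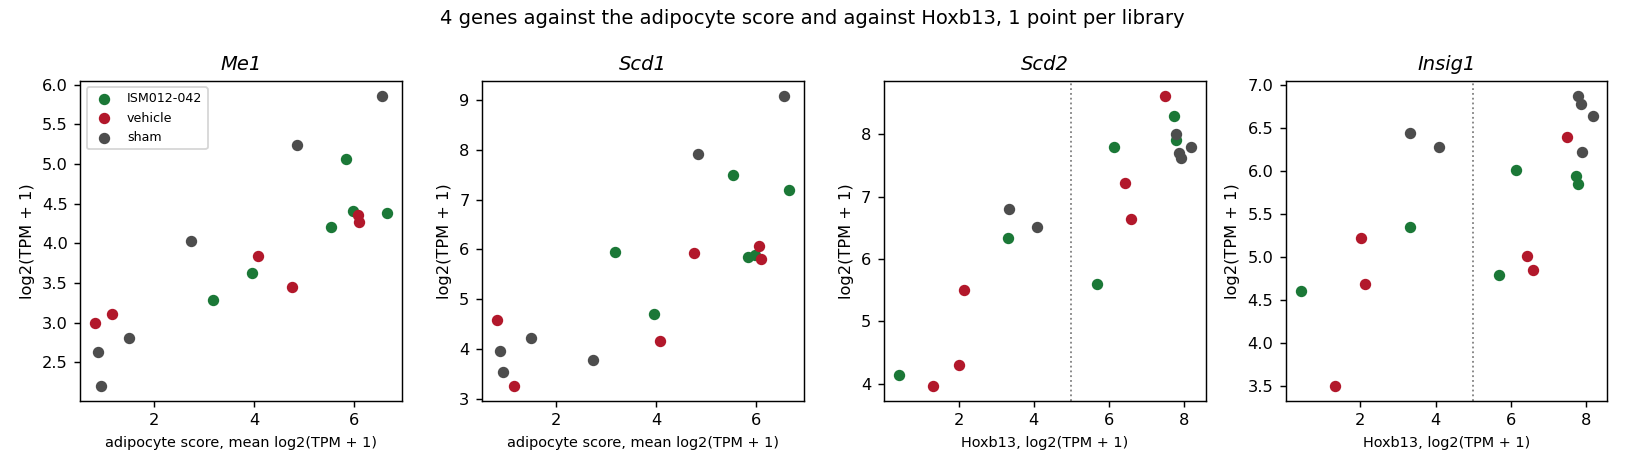
Level on the log2(TPM + 1) scale of Me1 and Scd1 against the adipocyte score and of Scd2 and Insig1 against Hoxb13, with 1 point per library coloured by group and a dotted line at a log2 Hoxb13 of 5. Me1 (r = 0.845) and Scd1 (r = 0.788) rise with the score, and Scd2 is higher in the libraries above the split, with a median of 220.8 TPM, than below it, with 44.2 TPM.

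The difference between vehicle and sham was also taken on either side of a split by Hoxb13, set after the values had been seen. The split left 4 ISM012-042, 3 vehicle and 4 sham libraries above a log2 Hoxb13 of 5, with at least 50.7 TPM, and 2, 3 and 2 below, with at most 16.1 TPM. Among the libraries above, the median difference of the 28 genes between vehicle and sham was -0.04, beside 0.19 for all genes. None of the 28 fell there, against 1.97% of all genes, and at an unadjusted p of 0.05 limma gave 1 lower and 2 higher, against 6.7% and 23.4% of all genes. Among those below, the median was -1.10, beside -0.40 for all genes, and 13 of the 28 fell, against 12.9% of all genes. They included Idi1 at -1.61 ± 0.37, Cyp51 at -1.45 ± 0.41, Hmgcs1 at -1.40 ± 0.33, Stard4 at -1.32 ± 0.29 and Elovl6 at -1.21 ± 0.28. The 3 vehicle libraries below the split, replicates 3, 4 and 5, had mitochondrial shares of 43.1%, 45.2% and 57.8%, against 31.2% and 34.8% in sham replicates 1 and 6.

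A test of the difference between the 2 sides passed for 6 of the 28 genes, against 24.8% of all genes with a larger value above than below. The 28 thus had no larger share than the table as a whole. The value above minus that below was 2.12 ± 0.46 for Elovl6, 1.67 ± 0.49 for Idi1, 1.66 ± 0.53 for Cyp51, 1.38 ± 0.37 for Stard4, 1.22 ± 0.36 for Hsd17b7 and 0.80 ± 0.25 for Dhcr7 (limma adjusted p from 0.0139 to 0.0337). With median-ratio scaling none of the 28 passed, against 3.19% of all genes, the smallest adjusted p being 0.0541 for Elovl6, and 3 reached an unadjusted p of 0.05, against 25.2% of all genes in either direction. For ISM012-042 against vehicle and against sham, no gene of the table passed this test, and of the 28 an unadjusted p of 0.05 was reached by 5 and by none, against 20.2% and 6.67% of all genes.

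**Figure D5:**
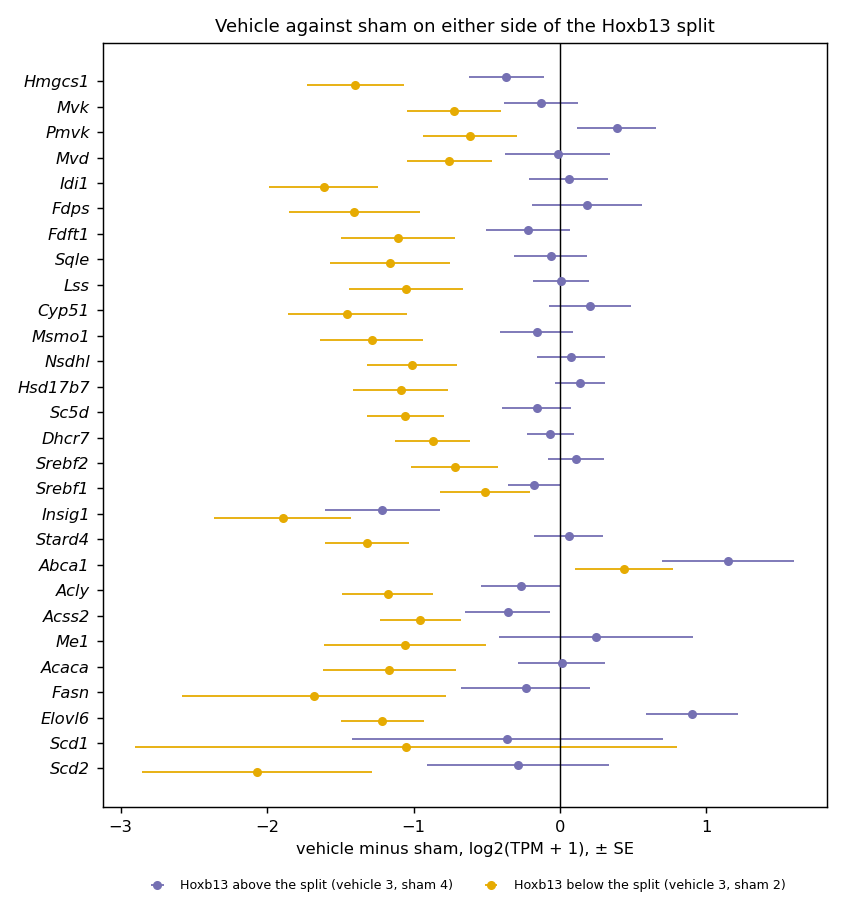
Difference of vehicle from sham on the log2(TPM + 1) scale with its SE for each of the 28 genes, among libraries with Hoxb13 above the split (3 vehicle, 4 sham) and below it (3 vehicle, 2 sham). The values above the split have a median of -0.04 and those below a median of -1.10, and Insig1 is negative on both sides.

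Of 6 lists of related genes, 3 genes passed in any comparison. Acsl3, which activates long-chain fatty acids, fell in vehicle against sham, at -1.31 ± 0.21 (adjusted p = 0.00261), with 27.5, 36.1 and 55.5 TPM at the lowest, median and highest in vehicle libraries, against 62.3, 95.6 and 124.6 TPM in sham libraries, without overlap. The share of all genes tested without overlap between these groups is not given here. Acsl3 was the 1 of 21 tested genes of the other fatty acid genes to pass. Abcg5 and Abcg8, which together form the sterol exporter of the apical membrane and are liver X receptor targets, were the 2 of 11 tested genes of the liver X receptor list to fall, at -2.64 ± 0.56 (adjusted p = 0.0125) and -1.79 ± 0.32 (adjusted p = 0.00595). Abcg5 had a mean of 1.09 ± 1.54 TPM in vehicle and 13.6 ± 10.1 TPM in sham libraries, and Abcg8 0.439 ± 0.402 TPM in vehicle and 4.40 ± 2.51 TPM in sham libraries (SD, n = 6 each). In ISM012-042 against sham Abcg8 also fell, at -1.42 ± 0.32 (adjusted p = 0.0332), and Abcg5 was at -1.99 ± 0.56 (adjusted p = 0.0834). Abca1, a target of the same receptor, had positive differences in both comparisons.

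The remaining lists gave no call in any comparison. They were 9 further genes of sterol synthesis, 12 of SREBP processing and feedback, 11 tested of cholesterol uptake, storage and export, and 6 of triglyceride synthesis. Named by their unadjusted p, in ISM012-042 against vehicle Mbtps1, the protease that first cuts SREBP, was at 0.57 ± 0.19 and Gpam, which starts triglyceride synthesis, at 0.67 ± 0.24, each at an adjusted p of 0.233. In ISM012-042 against sham Scarb1, the receptor of high-density lipoprotein, was at 1.04 ± 0.27 (adjusted p = 0.0602) and Nceh1, a cholesteryl ester hydrolase, at 1.20 ± 0.34 (adjusted p = 0.0834). Tm7sf2, a sterol reductase, was at -0.73 ± 0.30 in vehicle against sham, and Lpin1, a phosphatidate phosphatase, at 0.54 ± 0.23 in ISM012-042 against vehicle.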

How the data were processed

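RNA of mouse colon was sequenced in 18 libraries. The deposited table holds TPM, computed by the authors per gene symbol. The submitters' processing notes name DRAGEN 4.0.3 and the genome build mm10 without saying what each did, and how reads were counted, on which annotation and strand, is not given in the sources used here. Columns were matched to samples by the sample descriptions, and groups and replicate numbers come from the titles.

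From the TPM, log2(TPM + 1) was computed, and genes reaching 1 TPM in 6 or more libraries, 14129 in all, entered limma 3.58.1 (R 4.3.3). A single fit held the 18 libraries, with empirical Bayes (trend, robust) and Benjamini-Hochberg adjustment over all genes tested at 0.05. Correlations used 100000 permutations, and those within groups of 6 all permutations. The fitting code was tested on simulated data. Alternatives were pseudocounts of 0.1 and 5, no filter, a TPM minimum of 5, median-ratio scaling, mitochondrial genes left out, only the 2 groups compared, the replicate number as a block, the adipocyte score or Hoxb13 as covariates, and each library left out. The Hoxb13 split, its test of difference, the slopes and the ratio of Insig1 to Hmgcs1 were added after the data had been seen.

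The 28 genes and all lists were chosen with earlier results of these data known. All 28 are named. From the other lists, genes passing in any comparison are named, at most 4 a list, and otherwise the 2 of smallest unadjusted p, except that some are not reported here. Coordinates and promoters are from RefSeq GRCm38.p6, 1-based.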

Additional observations from a re-analysis of the deposited data

Results flagged for a closer look

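Abca1 in vehicle replicate 2 stood apart from its group, at 13.4 TPM, by Dixon's criterion for 6 samples. It was the 1 value to do so among the 84 groups of 6 looked at, where chance gives about 1 in 20. That library also had the highest neutrophil score of the vehicle group, 9.71, and a macrophage score of 5.15. Vehicle replicate 1 had a higher macrophage score, 5.63, with 4.78 TPM of Abca1. Of all genes tested, 33.8% were highest of the vehicle group in replicate 2. The part of these scores in the Abca1 value was not tested.

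For 6 genes the difference of vehicle from sham passed a test of its change across a log2 Hoxb13 of 5, being more positive in the libraries above than in those below. The value above minus that below was 2.12 for Elovl6, 1.67 for Idi1, 1.66 for Cyp51, 1.38 for Stard4, 1.22 for Hsd17b7 and 0.80 for Dhcr7. None of the 6 passed with median-ratio scaling, and 24.8% of all genes tested passed in this direction as deposited.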

How the results depend on the processing

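Each of the 28 genes was refitted in 24 alternatives per comparison. The counts of the 28 in vehicle against sham, 1 lower and 0 higher, became 2 lower and 1 higher with median-ratio scaling and without mitochondrial genes, 0 lower above the Hoxb13 split and 13 lower below it, and ranged from 1 to 8 lower when 1 library was left out, 8 without vehicle replicate 1. In ISM012-042 against sham, 1 higher and 0 lower became 0 higher with a pseudocount of 5, no filter, the adipocyte score as covariate and on both sides of the split, and 0 to 1 when 1 library was left out. There, 2 were lower with median-ratio scaling, 1 without mitochondrial genes and 1 with only the 2 groups fitted. The replicate number as a block gave 0 higher in ISM012-042 against sham and left the other 5 counts as they were. Correlations of same-numbered libraries ran from -0.38 to 0.61, so the numbers were not taken as pairs. With median-ratio scaling 20 genes, 4 positive and 16 negative, passed in relation to the adipocyte score, where 2 positive ones passed as deposited. Directions turned mostly above the Hoxb13 split. In ISM012-042 against vehicle 16 of the 28 were negative there. Values follow where they or their counterparts over all libraries exceeded 1 SE, and others, such as -0.36 for Fdps, did not. They were -0.0309 for Hmgcs1, -0.0304 for Sqle, -0.19 for Idi1 and Cyp51, -0.26 for Msmo1 and Elovl6, -0.17 for Nsdhl and Hsd17b7, -0.14 for Sc5d, -0.0629 for Dhcr7 and -0.00201 for Stard4. With median-ratio scaling Nsdhl was -0.00848 and Sc5d -0.0559. In vehicle against sham they were 0.39 for Pmvk, 0.0594 for Idi1, 0.0584 for Stard4, 0.18 for Fdps, 0.00649 for Lss, 0.0118 for Acaca, 0.21 for Cyp51, 0.0754 for Nsdhl, 0.14 for Hsd17b7 and 0.11 for Srebf2, and Elovl6 was -1.21 below the split. In ISM012-042 against sham Lss was -0.20 with median-ratio scaling, and with the adipocyte score Me1 was -0.61 and Scd1 -0.74. The causes were not tested. TPM carry no depth, so the precision of low genes such as Abca1 is known only from the spread between libraries.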

Other observations

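The desaturase family has 2 further genes beside Scd1 and Scd2 in mouse, both at low levels in colon. Scd3 had a median of 1.14 TPM in ISM012-042, 0.70 TPM in vehicle and 1.14 TPM in sham libraries, and Scd4 had 0.51, 0.31 and 0.66 TPM. Scd1 reached 544.7 TPM in sham replicate 6 and Scd2 393.2 TPM in vehicle replicate 1.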
